A study of Drosophila melanogaster with 2 samples.

Results

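The 35 genes described here encode proteins of DNA replication and the cell cycle. They were taken by symbol from a given list, all 35 were found among the 13945 protein-coding genes on the 6 chromosome arms, and they fall into 4 role groups. There were 16 genes of replication licensing and the replication fork, 2 genes of nucleotide supply, 13 cyclins, kinases and their regulators, and 4 regulators of the E2F type. For each gene the strongest deposited peak with its summit within 500 bp of one of the gene's transcription start sites (TSSs) was read, and the distance from that summit to the nearest such TSS was kept.

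The peaks come from chromatin immunoprecipitation followed by sequencing (ChIP-seq) in whole adult Drosophila melanogaster, males and females pooled and of unknown age. The flies were a single transgenic line that stably carried the homeobox protein CG11617 fused to GFP at its C-terminal end, and the chromatin was sonicated and precipitated through the GFP. There was 1 group, with 2 biological replicates that the labels number 2 and 3, and no control sample was analysed here, so no comparison between conditions can be made. The promoter that drives the fusion is not given in the labels, and a peak in chromatin of whole animals cannot be assigned to a tissue.

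Before S phase, the origin recognition complex (the Orc proteins), Cdc6 and dup (Drosophila Cdt1) load the hexameric Mcm helicase onto DNA, and geminin holds dup in check until the next cycle. Cyclin and Cdk pairs drive entry into S phase and mitosis. E2f1 with its partner Dp activates transcription of many of these genes at that point, E2f2 represses, and the retinoblastoma protein Rbf binds both, while in flies the factor DREF is a further known activator of replication genes. Adult flies hold few dividing cells outside the germ line and the gut.

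The values are the authors' own signal for each peak and are not scaled between lists. The deposited candidate lists of replicate 2, replicate 3 and the pooled replicates held 30000 entries each and include background. The set that passed the IDR step (irreproducible discovery rate, which scores whether a peak holds a similar rank in each replicate) held 5777 entries, which were the 5777 strongest of the pooled list. Its lowest signal was 163, so for a single gene an IDR peak and a pooled signal of at least 163 are the same statement. The strongest entry of a gene was read in each list by itself, and in 11 of the 35 genes a replicate's summit lay over 100 bp from the pooled one.

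The promoters of 4 Mcm genes with E2F letters are printed first, to show where the peaks lay against these letters, on the gene's strand of dm6 and 5′ to 3′. The letters were found by sequence alone, and whether they act in these promoters was not tested. Each window runs from 250 bases before the TSS to 50 bases from it on. Capitals mark 3 kinds of letters found on either strand. The E2F forms are TTTCCCGC, TTTGGCGC, TTTCGCGC and TTTGCCGC, the DREF element is TATCGATA, and TAATTA is a core that many homeodomains bind.
Mcm2 promoter, chr3R:8264720-8265019, + strand: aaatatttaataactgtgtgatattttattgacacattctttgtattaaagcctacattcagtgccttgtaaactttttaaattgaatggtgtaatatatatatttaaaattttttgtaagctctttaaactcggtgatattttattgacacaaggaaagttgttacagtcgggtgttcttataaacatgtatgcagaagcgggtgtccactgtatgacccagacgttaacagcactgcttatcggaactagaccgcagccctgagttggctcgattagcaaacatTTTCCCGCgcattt
Mcm5 promoter, chr3R:10788274-10788573, + strand: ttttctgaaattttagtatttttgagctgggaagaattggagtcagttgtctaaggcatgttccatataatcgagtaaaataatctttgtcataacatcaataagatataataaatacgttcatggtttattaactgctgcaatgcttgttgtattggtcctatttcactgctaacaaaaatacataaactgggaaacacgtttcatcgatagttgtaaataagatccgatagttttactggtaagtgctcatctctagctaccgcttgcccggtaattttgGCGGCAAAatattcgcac
Mcm6 promoter, chrX:6674137-6674436, + strand: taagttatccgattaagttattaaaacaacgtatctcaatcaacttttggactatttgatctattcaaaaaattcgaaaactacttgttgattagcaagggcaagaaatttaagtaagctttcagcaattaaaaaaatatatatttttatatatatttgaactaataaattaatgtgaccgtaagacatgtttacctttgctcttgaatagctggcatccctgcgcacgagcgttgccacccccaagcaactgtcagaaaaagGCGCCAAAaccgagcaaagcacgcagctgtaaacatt
Mcm3 promoter, chrX:5323605-5323904, + strand: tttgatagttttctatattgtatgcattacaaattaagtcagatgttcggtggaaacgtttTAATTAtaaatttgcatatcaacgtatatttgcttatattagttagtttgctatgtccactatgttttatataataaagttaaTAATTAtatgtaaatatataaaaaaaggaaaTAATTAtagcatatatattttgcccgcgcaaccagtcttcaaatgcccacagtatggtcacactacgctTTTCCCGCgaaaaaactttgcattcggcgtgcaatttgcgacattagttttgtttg
In Mcm2 the single E2F match started 36 bp after the TSS, and the peak summit lay 184 bp before the TSS. In Mcm5 the match started 32 bp after the TSS and the summit lay 247 bp before it. In Mcm6 the match started 13 bp after the TSS and the summit lay 131 bp before it. Mcm3 had a match starting 6 bp before its TSS and 3 copies of TAATTA, but no entry with a summit within 500 bp in any list. In Mcm5 a second, weaker summit lay 46 bp before the TSS, nearer to the E2F letters. In Mcm2 and Mcm6 the match still lay inside the peak interval. In Mcm5 it lay beyond the end of the strongest peak but inside the second. Replicate 2 had a further Mcm2 entry of 76.0, with its summit 6 bp before the TSS. The Mcm4 gene dpa had the strongest peak of the helicase genes and differed from Mcm2, Mcm5 and Mcm6. Its summit lay 91 bp after the TSS, with no E2F letters in the same window.

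Of the 35 genes, 14 (40%) carried an IDR summit in this window, beside 30.0% of all protein-coding genes. The 4 groups had 6 of 16 for licensing and the fork (37.5%), 1 of 2 for nucleotide supply, 4 of 13 for cyclins, kinases and regulators (30.8%) and 3 of 4 for the E2F regulators. Groups this small move by many percentage points with 1 gene, and no test was made between them. In the pooled list, background included, 34 of 35 genes had some entry within 500 bp, beside 61.6% of all genes. Mcm3 was the one without. The 14 are called bound genes where they are set against the other 21. Among the 14 genes the median IDR signal was 371, and over all 4178 genes with such a summit it was 309.

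**Figure D1:**
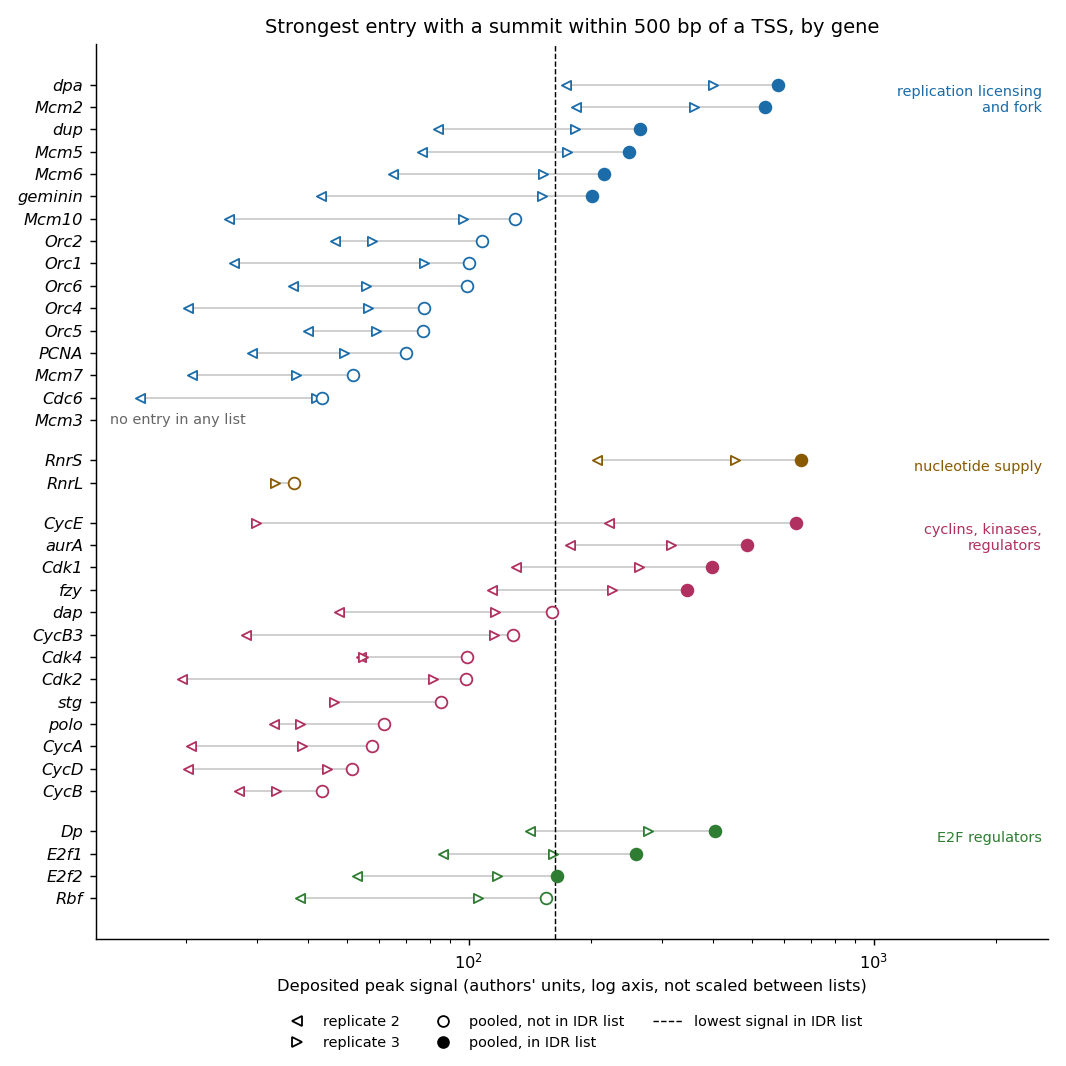
Strongest deposited signal (log axis, the authors' units) of an entry with a summit within 500 bp of a TSS, for each of the 35 genes in its role group: left-pointing triangles are replicate 2, right-pointing triangles replicate 3, and circles the pooled list, filled where the entry is in the IDR list. The 14 filled circles run from 165 to 662, the open ones from 37.0 to 161, and the dashed line is the lowest IDR signal of 163; for CycE the replicate 3 triangle at 29.8 is a weak entry, because the main replicate 3 summit lay just outside the window.

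In the Mcm2 to Mcm7 helicase, 4 of the 6 subunit genes had an IDR peak, beside 30.0% of all protein-coding genes. The 4 differed in strength. The gene of the Mcm4 subunit, dpa (FBgn0015929, 2R), had signals of 174 in replicate 2, 401 in replicate 3 and 580 in the pooled list, at rank 778 of the pooled entries. Mcm2 (FBgn0014861), with a peak at chr3R:8264420-8265015, had 184, 361 and 540, at rank 908. Both genes ranked among the 1000 strongest entries in each replicate as well.

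Mcm5 (FBgn0017577) had its strongest peak at chr3R:10788009-10788544, with 174 in replicate 3 and 248 in the pooled list. Its second IDR summit had 211. The only replicate 2 entry, of 76.8, overlapped both peaks and had its summit 87 bp before the TSS, between the summits and closer to the second. Mcm6 (FBgn0025815) had a peak at chrX:6673988-6674523, with 65.2, 152 and 216. These peaks were at pooled ranks 3152 and 3832, well behind those of dpa and Mcm2.

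The other 2 subunit genes had no IDR peak at their starts. Mcm7 had a weak entry of 20.7 in replicate 2, 37.5 in replicate 3 and 51.7 pooled, with its summit 35 bp before the TSS. Near Mcm3 the closest IDR summit, of 609, lay 1229 bp upstream and 70 bp from the start of Rnp4F. Mcm10, a separate fork factor outside the hexamer, had 25.5, 96.6 and 130, with a summit 466 bp upstream that was nearer to the start of bur.

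None of the 5 Orc genes had an IDR peak, beside 30.0% of all protein-coding genes. With so few genes, no contrast with the Mcm genes is read from this. Each of the 5 had an entry in all 3 candidate lists. Orc2 was the strongest, with 46.8 in replicate 2, 57.6 in replicate 3 and 108 pooled. Orc1 had 26.3, 77.4 and 100.4, and Orc6 had 36.9, 55.8 and 99.1. Orc4 had 20.2, 56.4 and 77.7, and Orc5 had 40.1, 59.0 and 77.3. The 5 pooled signals spanned only 77.3 to 108, all below the weakest IDR entry. The loader gene Cdc6 was lower still, with 15.5, 41.8 and 43.5.

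The Cdt1 gene and the gene of its inhibitor both had IDR peaks. The Cdt1 gene dup (FBgn0000996, 2R) had 84.0 in replicate 2, 183 in replicate 3 and 264 pooled. The gene of its inhibitor geminin (FBgn0033081, 2R) had 43.3, 151 and 201.4, with the summit 35 bp before the TSS. Geminin ranked 7792 in replicate 2 but 3830 in replicate 3, so its place in the IDR list rests more on replicate 3.

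PCNA encodes the sliding clamp of the DNA polymerases and is a textbook target of both E2F and DREF. Its own start had an entry of 29.1 in replicate 2, 49.3 in replicate 3 and 70.1 pooled, which is not in the IDR list. A strong IDR summit of 640 lay 1104 bp upstream of PCNA and 8 bp from the start of RpS18, a ribosomal protein gene.

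Ribonucleotide reductase makes deoxynucleotides from ribonucleotides and is built of a large and a small subunit. The small subunit gene RnrS (FBgn0011704, 2R) had 207 in replicate 2, 454 in replicate 3 and 662 pooled, at rank 606. This was the highest of the 35 genes in the pooled list and in replicate 3, while in replicate 2 CycE was higher. The large subunit gene RnrL had no entry within 500 bp in replicate 2, 33.3 in replicate 3 and 37.0 pooled, the lowest pooled value of the 34 genes that had one. The subunits of this enzyme thus stood at opposite ends of the range in the pooled list.

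Among the 5 cyclin genes only CycE, whose product with Cdk2 starts S phase, had an IDR peak, beside 30.0% of all protein-coding genes. CycE (FBgn0010382) had 222 in replicate 2 and 644 pooled, at chr2L:15746872-15747396, inside an intron of the longer transcripts and 482 bp before the TSS of a shorter one. In replicate 3 the overlapping entry of 417 had its summit 508 bp from that TSS, just outside the window, where the strongest entry left was 29.8. A second IDR summit of 361 lay 692 bp before the TSS, so 2 summits stood side by side there. Both replicates therefore held a strong peak at this intron, and only the window separated them.

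The other cyclins had pooled signals below the IDR floor. CycB3, a mitotic cyclin, had 28.2 in replicate 2, 116 in replicate 3 and 128 pooled. CycA had 20.6, 38.7 and 57.8, CycD of the G1 phase had 20.3, 44.6 and 51.4, and CycB had 27.1, 33.3 and 43.3. The last was low at its starts, while an IDR summit of 579 lay 3313 bp downstream of the nearest of them, beyond the gene.

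Of the 3 Cdk genes, Cdk1, the mitotic kinase, had an IDR peak, beside 30.0% of all protein-coding genes. Cdk1 (FBgn0004106) had 131 in replicate 2, 263 in replicate 3 and 398 pooled at chr2L:10386376-10386684. Cdk2, the partner of CycE, had 19.6, 81.5 and 98.5. Cdk4, the partner of CycD, had 54.1, 54.8 and 99.1. In Cdk4 replicate 2 ranked 5843 and replicate 3 ranked 12867, so the replicates differed in where they placed it.

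Among the regulators of mitosis, aurA and fzy had IDR peaks and polo did not. The Aurora A kinase gene aurA (FBgn0000147) had 178 in replicate 2, 315 in replicate 3 and 486 pooled at chr3R:11962738-11963185, and a second IDR summit of 171 lay 57 bp inside the gene. The gene fzy (FBgn0001086), for the Cdc20 activator of the anaphase promoting complex, had 114, 225 and 345 at chr2L:16310639-16310917. The kinase gene polo had 33.0, 38.3 and 61.7.

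The Cdk inhibitor gene dap (dacapo) and the Cdc25 phosphatase gene stg (string) lay near the edges of the window. For dap the strongest pooled entry inside it had 161, just under the IDR floor, with its summit 239 bp before the TSS. The replicate 3 entry there had 108, the strongest replicate 3 entry of 116 lay 149 bp after the TSS, and the strongest replicate 2 entry of 47.8 lay 155 bp before it. An IDR summit of 173 lay 513 bp before its TSS and was not counted. For stg the pooled entry of 85.3 lay 497 bp before the TSS and nearer to CG45544. Replicate 3 had 46.5 there, and the replicate 2 summit of 39.5 fell 537 bp before the TSS, outside the window.

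Of the 4 E2F regulators, Dp, E2f1 and E2f2 had an IDR peak, beside 30.0% of all protein-coding genes. The gene Dp (FBgn0011763, 2R) had 141 in replicate 2, 277 in replicate 3 and 405 pooled, 249 bp before the nearest TSS and inside an intron. It was the only one of the 35 with 3 IDR summits within 500 bp of its TSSs, and the others had 331 and 274. The one of 274 lay 50 bp before a Dp start and 45 bp from the start of Fsn.

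E2f1 (FBgn0011766) had 86.5 in replicate 2, 162 in replicate 3 and 259 pooled at chr3R:21632855-21633170. The summit lay 87 bp after an internal one of its 5 TSSs, in a 5′ UTR of the gene. E2f2 (FBgn0024371) had 52.9, 118 and 165 at chr2L:21156104-21156639, the weakest IDR peak of the 14. Rbf had 38.3, 105 and 155, below the floor by little. E2f2 and Rbf thus stood on either side of the threshold with pooled signals of 165 and 155, and the calls separate values that hardly differ.

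**Figure D2:**
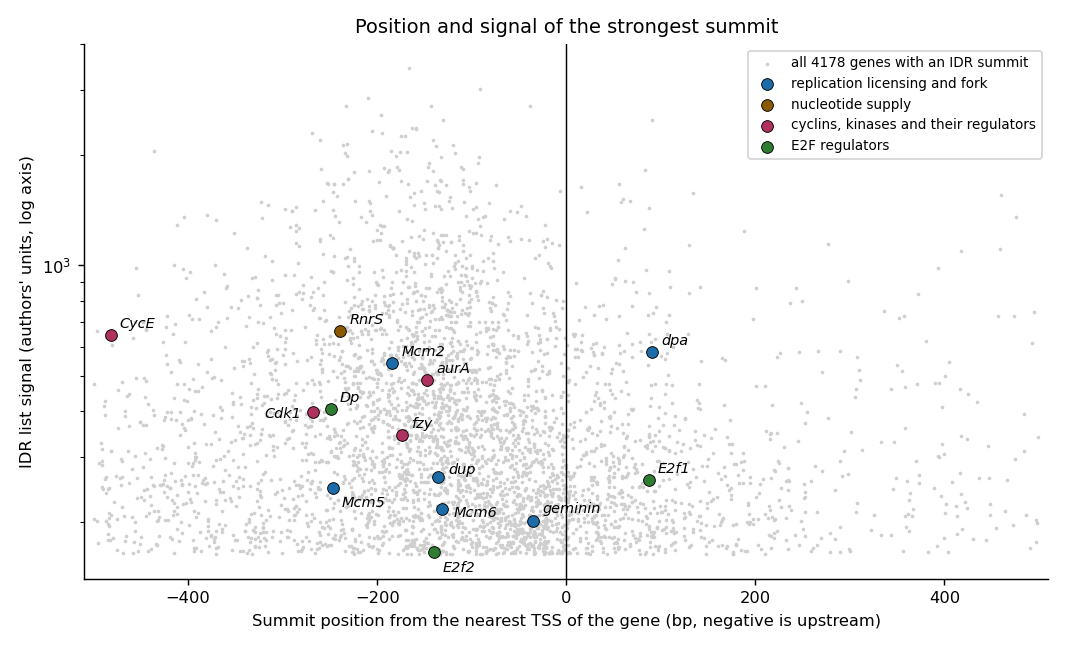
Position of the strongest IDR summit from the nearest TSS of the gene (horizontal axis, bp, negative is upstream) and its signal (vertical axis, log scale, the authors' units). Grey points are all 4178 genes with an IDR summit and coloured points the 14 genes by role group; 12 of the 14 lie to the left of the TSS line, and dpa and E2f1 lie at 91 and 87 bp to its right.

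The 14 summits lay upstream of the start in 12 genes (85.7%), beside 79.5% of all genes with an IDR summit. Their positions ran from 482 bp before to 91 bp after the TSS, with a median of -160.5 bp, and the median over all such genes was -115 bp. In 3 of the 14 genes the summit lay within 100 bp of the TSS, beside 36.3% of all. In 7 genes the summit lay between genes, and in the other 7 inside a gene, in a 5′ UTR or an intron. This split was not counted over all genes. In geminin, dup, CycE, E2f2 and Dp the summit lay upstream of the nearest TSS but inside the gene itself, after the start of a longer transcript.

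In 10 of the 14 genes (71.4%) the summit also lay within 500 bp of the start of another protein-coding gene, beside 57.9% of all genes with an IDR summit. All 10 pairs were divergent, with starts 2 to 615 bp apart. The position of a peak does not tell which of the paired genes it concerns. The pairs in which the cell cycle gene was the nearer were Mcm2 with RPA1, Mcm6 with CG3198, dpa with didum, RnrS with CG34231 and aurA with CG3281. The other gene was nearer in the pairs Mcm5 with Art1, dup with SRPK, Cdk1 with mRpS7, fzy with cni and E2f2 with Mpp6.

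The pair Mcm2 and RPA1 joins 2 replication genes under 1 peak, since RPA1 encodes the large subunit of the single-strand binding protein of the fork. Its summit lay at -184 bp from the start of Mcm2 and at -335 bp from that of RPA1. The peaks of geminin, CycE, E2f1 and Dp had no other start within 500 bp of the strongest summit. At dpa and didum the starts were only 2 bp apart, and at E2f2 and Mpp6 they were 56 bp apart.

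Replicate 3 signals were higher than replicate 2 signals, by a median of 2.28-fold over 4166 genes with an entry of both replicates overlapping the IDR peak. After this shift was taken off, the log2 ratios of replicate 3 to replicate 2 ran from -0.36 in aurA to 0.62 in geminin over the 14 genes. Their SD was 0.24, and over all genes it was 0.39. Geminin was the gene that leaned most to replicate 3, and 11 of the 14 lay below zero. For a single gene the IDR list is a cut on pooled signal, not a check of its own replicate agreement. That signal draws on both replicates, so this spread is a description.

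When each replicate was read alone through its 5777 strongest entries, 12 of the 35 genes had a summit in the window in replicate 2, beside 28.1% of all genes. Replicate 3 gave 15 genes, beside 30.3%. E2f2 and geminin were called in replicate 3 and not in replicate 2. CycE was missed in replicate 3 because of the 508 bp distance, and CycB3 and dap were called there in addition.

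E2F letters stood in the promoter windows of 13 of the 35 genes (37.1%), beside 6.55% of all 13945 promoters and 6.61% of the promoters of genes with an IDR summit. The 13 were 9 of the 16 licensing and fork genes (Mcm2, Mcm3, Mcm5, Mcm6, Orc1, Orc4, Orc5, Orc6 and dup), both ribonucleotide reductase genes, CycE and stg. None of the 4 E2F regulators held them. Only the 4 exact forms were sought, so TTTGGCGG, which stood in the Mcm7 and Mcm10 promoters on either strand, was not counted. Genes without a match, PCNA among them, may thus hold E2F sites of another form. The list was drawn from genes of which several are known E2F targets, so this share is no independent finding about it.

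The E2F letters stood in 6 of the 14 genes with an IDR peak (42.9%) and in 7 of the 21 without (33.3%). Within 50 bp of the 14 summits on either side there was no match, beside 2.08% of all 5777 summits, too rare to read anything from it. The promoter window hardly reaches upstream of several summits, so the letters were also sought 400 bp to either side of each gene's strongest summit, a choice made after the data were seen. On the downstream side, along the gene, 7 of the 14 genes had a match (Mcm2, Mcm5, Mcm6, dpa, dup, RnrS and CycE), beside 9.02% of all genes with an IDR summit. All of them but dpa already held the letters in the promoter window, on the downstream side of the summit. The downstream share thus largely repeats the promoter count and is no separate finding. On the upstream side 0 of the 14 had one, beside 8.50% of all, and with 14 genes nothing is read from that 0. The nearest downstream match was centred 94 bp from the summit in dpa and 372 bp in CycE, the ends of the range. Of the 16 matches in the 13 genes, 14 started within 60 bp of the TSS (87.5%), beside 37.7% of the 984 matches in all promoters.

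The DREF element stood in 5 of the 35 promoters (14.3%), those of PCNA, Orc2, Orc5, CycA and Cdk2, beside 9.14% of all promoters. All 5 genes lacked an IDR peak, so 0 of the 14 bound genes held it, while 14.6% of the promoters of all genes with an IDR summit did. The count of 14 genes is small, and this difference was not tested. Orc2 carried 2 copies, and its promoter is shown for them, again with DREF and TAATTA matches in capitals, on the gene's strand of dm6.
Orc2 promoter, chr3R:13964635-13964934, + strand: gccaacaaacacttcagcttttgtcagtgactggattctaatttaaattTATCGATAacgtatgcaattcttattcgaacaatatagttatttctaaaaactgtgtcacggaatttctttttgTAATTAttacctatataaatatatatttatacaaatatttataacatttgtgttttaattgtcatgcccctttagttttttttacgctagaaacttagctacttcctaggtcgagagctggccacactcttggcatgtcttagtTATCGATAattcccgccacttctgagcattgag
The strongest pooled entry of Orc2, with a signal of 108, had its summit 196 bp before the TSS and inside the upstream copy. The replicate 2 and 3 summits lay 190 and 216 bp before the TSS, both outside that copy. A second pooled entry of 80.7 had its summit 4 bp after the TSS. The other copy started 17 bp after the TSS. CGATA, the letters of BEAF-32, is contained in every DREF match, and it stood in 19 of the 35 promoters (54.3%), beside 47.2% of all.

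The bases under the summits were rich in A and T. Within 50 bp of the 14 summits on either side the median GC content was 28.2%, with a range from 17.8% to 47.5%, and over all IDR summits the median was 36.6%. For the 300 bp promoters the medians were 35.8% for the bound genes, 40.0% for the 21 others and 38.3% for all genes. The summit windows of 4 bound genes are printed, on the gene's strand of dm6, with TAATTA in capitals where it occurs. Those of CycE, Cdk1 and aurA show the low GC content, while that of fzy lay slightly above the median of all summits.
CycE summit, chr2L:15747042-15747142, - strand: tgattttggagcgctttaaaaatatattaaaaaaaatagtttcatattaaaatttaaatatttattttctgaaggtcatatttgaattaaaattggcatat
Cdk1 summit, chr2L:10386480-10386580, - strand: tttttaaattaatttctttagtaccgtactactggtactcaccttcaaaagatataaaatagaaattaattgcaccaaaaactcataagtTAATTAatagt
aurA summit, chr3R:11962927-11963027, + strand: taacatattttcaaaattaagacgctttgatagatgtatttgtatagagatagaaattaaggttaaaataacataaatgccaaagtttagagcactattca
fzy summit, chr2L:16310732-16310832, + strand: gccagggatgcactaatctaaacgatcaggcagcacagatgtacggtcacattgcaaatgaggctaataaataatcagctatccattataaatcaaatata
Only the Cdk1 window held TAATTA, 1 of the 14, beside 9.61% of all IDR summits. With 100 bp on either side it was 3 of 14 (21.4%), beside 17.0%, so the order against all summits turned. In promoters TAATTA stood in 9 of the 35 genes (25.7%), beside 20.0% of all. Of the letters known from the Iroquois and TALE types of homeodomain, TAACA stood at 1 of the 14 summits, beside 24.8% of all, and TGACAG at none, beside 3.08%. With 100 bp on either side TAACA stood at 4 (28.6%), beside 42.9%, and TGACAG at 2 (14.3%), beside 6.44%, which turned its order. GGTCACACT, the element of M1BP, stood in 5 promoters (14.3%), beside 5.92% of all. It stood at none of the 14 summits, beside 1.21% of all, too rare to read anything from it.

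GAGAGAG stood in 3 of the 35 promoters, beside 6.51% of all promoters, and at none of the 14 summits, beside 2.44% of all. TATAAA stood in 16 promoters (45.7%), beside 45.4% of all promoters. At the summits it stood in 3 of the 14 (21.4%), beside 19.3% of all.

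Around the 35 genes, 6 further lists with 150 genes of the same processes gave 62 with an IDR summit (41.3%), beside 30.0% of all genes. Of the leading genes named below, all but Pfas, Adsl and CycT had a summit that also lay within 500 bp of another gene's start. Such sharing held for 57.9% of all genes with an IDR summit. Replication polymerases and fork factors had 9 of 33 (27.3%), the lowest share. The strongest were PolD2, a subunit of DNA polymerase delta, with an IDR signal of 824, Ctf4 with 732, the primase subunit Prim1 with 562, and RPA1 with the 540 of the Mcm2 peak. Nucleotide synthesis had 8 of 19 (42.1%), led by Dhod of pyrimidine synthesis at 407, Pfas and Adsl of purine synthesis at 391 and 337, and dUTPase at 361.

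Other cyclins, Cdks and their regulators had 12 of 30 (40%), led by Cdk12 at 962, plu at 640, the origin-firing kinase Cdc7 at 610 and CycT at 559. Cdk12 and CycT act in transcription rather than in the cycle, and the plu summit is the one at RpS18. The anaphase promoting complex, spindle checkpoint and mitosis list had 18 of 43 (41.9%), led by sti and tum of cytokinesis at 700.3 and 555, Cdc16 of the complex at 515 and the condensin gene SMC2 at 504.

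The dREAM complex is the assembly of E2F, Rbf, Myb and Mip proteins that regulates the transcription of many genes. The list of its genes, which also held the Polycomb gene E(z) and Dref, had 6 of 10 (60%). Dref had the highest signal at 1165, with its summit shared with the ribosomal protein gene RpL13, followed by E(z) at 965, Rbf2 at 604 and mip130 at 481. The summits of E(z), Rbf2 and mip130 were shared as well, with Cnep1r2, CG32856 and Edem1. Without an IDR peak in the window were mip120, mip40, lin-52 and Myb. For lin-52 replicate 3 had a strong entry of 1131, at rank 65, with its summit at -500 bp on the edge of the window, while the pooled and replicate 2 lists had no summit inside it. The replication and damage checkpoint list had 9 of 15 (60%), led by the ATR kinase gene mei-41 at 486, nbs at 435, Brca2 at 350 and rad50 at 259.

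**Figure D3:**
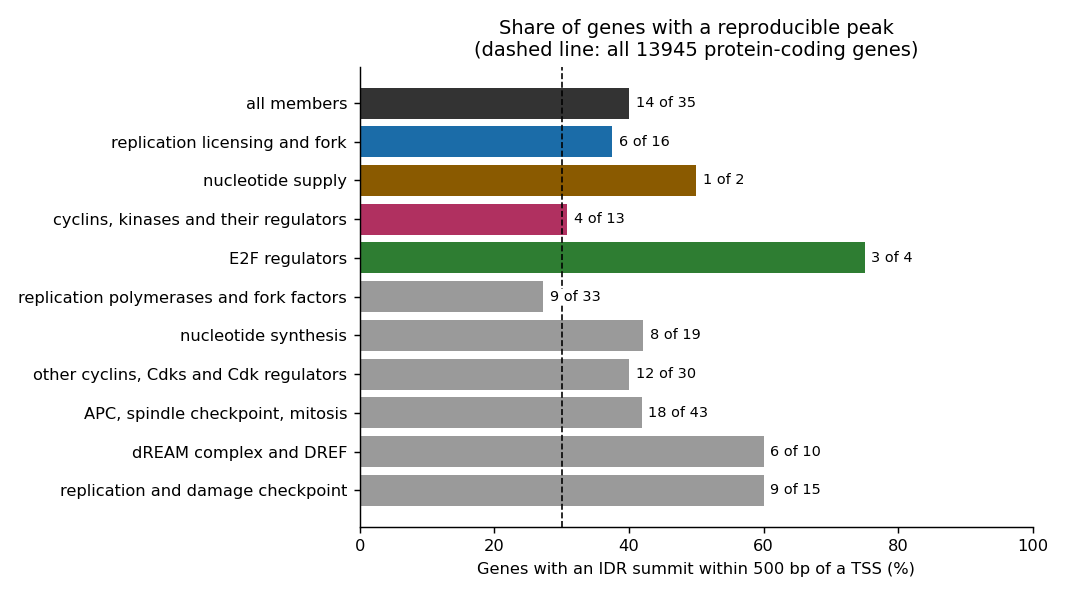
Share of genes (horizontal axis, percent) that carried an IDR summit at a start, for the 35 genes, their 4 role groups and the 6 further lists, with the number of genes written beside each bar. The dashed line is the 30.0% of all protein-coding genes; the bars run from 27.3% for replication polymerases and fork factors to 75% for the 4 E2F regulators.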

How the data were processed

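ChIP-seq peak lists on dm6 were used from 2 biological replicates of 1 group. The authors deposited a candidate list per replicate, a pooled candidate list and an optimal IDR list made from them, per the notes deposited with the lists. The deposited signal value of each peak was used to rank and describe entries within a list. The aligner and peak caller are not given in the sources used. The lists hold no read counts, so depth is unknown and no counting interval is given.

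Gene starts were those of protein-coding transcripts of the Ensembl release 115 annotation (BDGP 6.54) on 6 arms, 19607 TSSs in all. For each gene the strongest entry with a summit within 500 bp of any of its TSSs was taken. Coordinates are dm6, counted from 1. Sequences were read from the RefSeq Release 6 genome, within whose arms every entry lay, on the TSS nearest the strongest pooled summit, or on the canonical TSS where there was none.

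Python 3.11.15, pandas 2.3.3, numpy 2.4.6 and matplotlib 3.10.9 were used, and the assignment was tested on simulated peaks. The genes and lists were chosen with earlier results of these data known, so no test was made over them. All 35 genes are named. From each further list the 4 genes of highest IDR signal are named, and those without a peak where they are fewer than 6. Of 154 symbols written for the further lists 1 was not matched, and 150 genes were left once duplicates were joined. The replicates came from separate biological samples of the same line, per the labels. The dm3 lists were not used.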

Additional observations from a re-analysis of the deposited data

How the results depend on the processing

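No paired analysis was possible because there is 1 group. Beside the 14 genes with an IDR summit in the main reading, 12 were found with a 250 bp window (25.4% of all genes), 15 with 1000 bp (32.8%), 15 with any base of the entry within 500 bp (31.3%), 14 with 1 TSS for each gene (27.0%) and 10 when a peak was given to the nearest gene only (22.9%). IDR peaks at or above the median signal gave 9 (17.9% of all genes), with 3 in licensing and the fork and 1 in the E2F regulators. All 30000 pooled entries gave 34 (61.6% of all genes), with 15, 2 and 13 in licensing, nucleotide supply and cyclins and kinases. For cyclins, kinases and regulators, 4 fell to 2 with the 250 bp window and to 2 with the nearest gene only. The median IDR signal of 371 became 305 with 250 bp, 345 with 1000 bp and 446 with the nearest gene only. Leaving out replicate 2 or 3 gave 15 and 12 genes, 6 and 5 for licensing, 1 and 1 for nucleotide supply, 5 and 4 for cyclins and kinases, and 3 and 2 for the E2F regulators. E2F letters were found in 15 promoters with 600 bp windows (11.7% of all), and at 1 summit (7.14%) when 100 bp on either side were read (4.19% of all), above the share of all summits. DREF letters stayed at 5 promoters (14.3%, beside 11.5% of all) and 0 summits (4.88% of all). CGATA went from 2 of 14 summits (14.3%, beside 18.6% of all) to 6 (42.9%, beside 32.1%). The position medians under other windows, a choice added after the data were seen, lay from -174 to -139 bp.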
